A study of Mus musculus with 5 samples.

Results

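Dense runs of KAP1 peaks are stretches of the mouse genome where many separate binding sites of 1 protein lie close together. They were chosen on the measured peak positions: the KAP1 peaks of vehicle-treated cells on chromosomes 1 to 19 were sorted, neighbours separated by 3000 bp or less were joined, and joined groups of 4 or more peaks were kept. The rule gave 3034 runs out of 52659 joined groups (5.76%). They held 16857 of the 81762 KAP1 peaks on these chromosomes (20.6%). The number, spacing and scores of the KAP1 peaks in the runs follow from this choice, so they are given as a description.

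The study immunoprecipitated chromatin of mouse embryonic stem cells with antibodies to KAP1 or Ring1b and sequenced 5 libraries, 1 per group. KAP1 was mapped in KAP1 fl/fl cells given the ethanol vehicle and in the same line given 4-hydroxytamoxifen. Ring1b was mapped in Ring1b fl/fl cells given vehicle, in Ring1b fl/fl cells given 4-hydroxytamoxifen, and in KAP1 fl/fl cells given 4-hydroxytamoxifen. Drug or vehicle was given for 24 h, and the next 48 h of culture were with tamoxifen for the Ring1b fl/fl line and without it for the KAP1 fl/fl line, on irradiated mouse embryonic fibroblasts in every group. An fl/fl line carries alleles that a drug-activated recombinase can delete, and the labels do not name the recombinase or its promoter. The KAP1 list and the Ring1b list thus come from different cell lines, and each group is 1 library, so no difference between groups could be tested. The lists hold no expression values, so neither the cell type nor the deletions could be checked against marker genes.

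KAP1, also called TRIM28, is a corepressor that does not bind DNA by itself. It is brought to DNA by KRAB zinc finger proteins and recruits the histone methyltransferase SETDB1 and HP1 proteins, and it is best known in embryonic stem cells for silencing endogenous retroviruses and protecting imprints. Ring1b, encoded by Rnf2, is the catalytic subunit of Polycomb repressive complex 1, which ubiquitinates histone H2A and covers CpG-rich promoters of developmental regulators in these cells.

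The sequences below come from the start sites of 4 genes whose runs ranked among those with the most KAP1 peaks, and are shown because they span the range of base composition under the runs. Each is the 250 bases before the transcript start, 5′ to 3′ on the gene's strand, from RefSeq GRCm38.p6, the build of the peak lists. Capitals mark CG dinucleotides, the sites of DNA methylation and the hallmark of CpG islands. Klf3 encodes a Krüppel-like transcription factor, Dusp27 a phosphatase-related protein, Elovl6 a fatty acid elongase and Mllt6 a chromatin-associated PHD finger protein.
Klf3, chr5:64803271-64803520, plus strand: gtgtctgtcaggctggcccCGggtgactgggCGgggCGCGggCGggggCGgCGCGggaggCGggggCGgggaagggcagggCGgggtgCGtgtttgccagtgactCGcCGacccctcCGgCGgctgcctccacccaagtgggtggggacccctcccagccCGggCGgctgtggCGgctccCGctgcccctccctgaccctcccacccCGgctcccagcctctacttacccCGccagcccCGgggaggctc
Dusp27, chr1:166127899-166128148, minus strand: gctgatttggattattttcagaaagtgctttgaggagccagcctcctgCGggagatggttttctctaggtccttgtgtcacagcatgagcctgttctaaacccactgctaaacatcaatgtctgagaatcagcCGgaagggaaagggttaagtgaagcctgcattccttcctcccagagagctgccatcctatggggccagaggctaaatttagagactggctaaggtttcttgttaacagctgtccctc
Elovl6, chr3:129532136-129532385, plus strand: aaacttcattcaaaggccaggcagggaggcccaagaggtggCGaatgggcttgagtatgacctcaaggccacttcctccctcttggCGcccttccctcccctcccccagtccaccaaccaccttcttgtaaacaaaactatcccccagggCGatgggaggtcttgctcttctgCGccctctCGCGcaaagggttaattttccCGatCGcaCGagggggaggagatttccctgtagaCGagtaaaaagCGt
Mllt6, chr11:97663162-97663411, plus strand: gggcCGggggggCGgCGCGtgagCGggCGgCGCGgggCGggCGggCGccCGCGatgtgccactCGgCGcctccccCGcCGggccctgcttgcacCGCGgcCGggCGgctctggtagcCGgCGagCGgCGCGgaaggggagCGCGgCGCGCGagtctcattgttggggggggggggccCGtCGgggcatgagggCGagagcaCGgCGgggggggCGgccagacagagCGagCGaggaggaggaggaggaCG

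These windows differed in both sequence and occupancy. The Klf3 window held 23 CG dinucleotides and was overlapped by a KAP1 peak of score 260 and by a Ring1b peak. The score is the authors' deposited value, 10 times the −log10 p of the peak caller for 1 library against its control, and it ranks peaks within 1 list only. The Dusp27 window held 2 CG dinucleotides and a KAP1 peak of score 527, with no Ring1b peak. Elovl6 had 11, with both proteins, and its KAP1 peak of score 343 was the highest of its run. The Mllt6 window had 40, the most of the 4, and no peak of either list, although its run lay on both sides of it.

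Over all 1371 promoter windows inside runs (1121 genes), the median was 16 CG dinucleotides per 250 bases, against 10 over the 20085 windows of the table and 17 for the 9455 windows with a KAP1 peak outside runs. Inside runs, the 425 windows that met a Ring1b peak had a median of 18 and the other 946 a median of 15. The 6-base motif GGGCGG, searched on both strands, was present in 64.6% of the windows in runs, 63.7% of the KAP1 windows outside them and 43.4% of all windows. The motif TGCCGC, also searched on both strands, was present in 12.3%, 15.8% and 10.3%. Both motifs contain a CG, so these shares are not independent of the CG counts. In base composition the start sites in runs were thus close to other start sites under KAP1.

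Runs had a median length of 7216.5 bp (range 1913 to 41695 bp) and a median of 5 peaks (range 4 to 25). They spanned 24.97 Mb, of which 11.3 Mb lay in KAP1 peaks, and the gaps between neighbouring peaks in a run had a median of 743 bp. No KAP1 peaks in the list overlapped or touched. The numbers fell steeply with size: 1367 runs had 4 peaks, 639 had 5, 198 had 10 or more, and 73 were 20 kb or longer. The median score was 110 for peaks in runs and 93.5 for those outside, and the median widths were 570 and 499 bp. Within a run the peaks were uneven, and the highest score was 2.14 times the run's median score at the median run. The highest-scoring peak was an end peak in 37.2% of runs, where the share of end peaks per run, averaged over runs, was 40.1%.

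**Figure D1:**
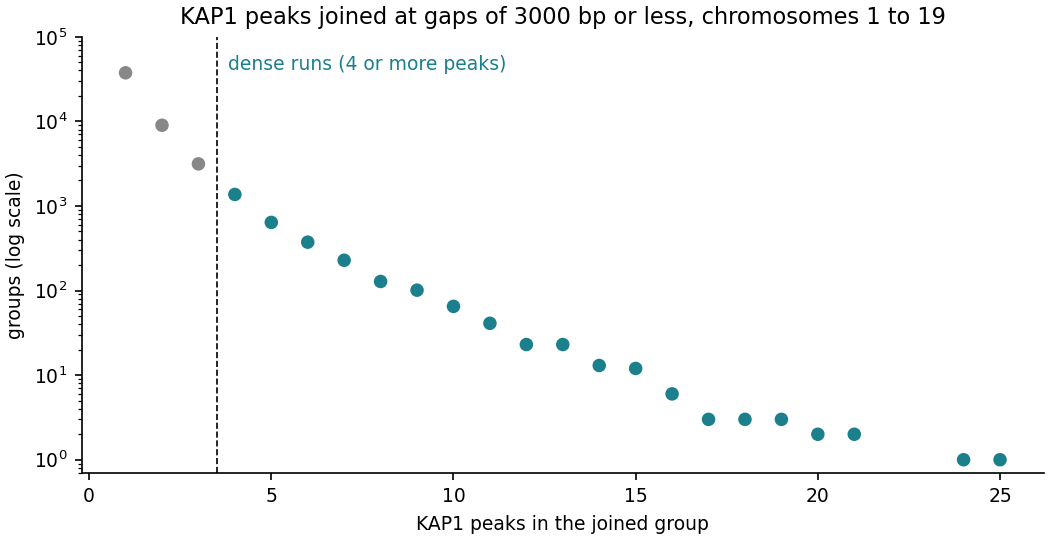
Number of joined groups (y axis, log scale) by the number of KAP1 peaks in the group (x axis), on chromosomes 1 to 19. Groups of 4 or more peaks, right of the dashed line, are the dense runs, from 1367 runs of 4 peaks to 1 run of 25.

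At the edge of the rule, the 3 runs whose widest gap was nearest the limit lay at Ywhag (gap 3000 bp), near Trim29 (2998 bp) and at Pdxk-ps (2997 bp). The 3 groups that missed it by 1 gap lay at Zbtb48 (3001 bp), near Cdv3 (3002 bp) and at D330023K18Rik (3003 bp). The highest KAP1 scores were 202 to 316 in the first 3 and 152 to 291 in the others, so the limit cut through groups of overlapping strength.

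The run with the most peaks lay over Klf3 (chr5:64794778-64836447) and held 25 KAP1 peaks in 41670 bp, with scores from 51.9 to 477. All of the gene's 29.4 kb lay inside it. The run at Dusp27 and Gpa33 (chr1:166119518-166161212), the latter an intestinal cell-surface glycoprotein gene, was the longest at 41695 bp, with 24 peaks, 70.3% of its length in peaks and a top score of 1116. Klf5, a Krüppel-like factor that supports self-renewal of embryonic stem cells, had a run of 21 peaks over 37563 bp. Tmem51, which encodes a transmembrane protein, also had 21. The next runs lay at C77080 (20 peaks; the deposited table calls it S100pbp), at Dyrk3, a protein kinase gene, with Eif2d, a translation initiation factor gene (20), at Elovl6 (19), at Cdh1 (19), at Mllt6 (19) and between genes, 20637 bp from Bcas2 (18). Only the last and Cdh1, which encodes the adhesion molecule E-cadherin of epithelial and stem cells, held no Ring1b peak among these 10 runs. The other 8 held 1 to 4 Ring1b peaks each, and the highest Ring1b score of a run ranged from 52.4 to 120. Of all 1286 runs with Ring1b, 820 held 1 such peak, and the median score of Ring1b peaks in runs was 87.1.

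**Figure D2:**
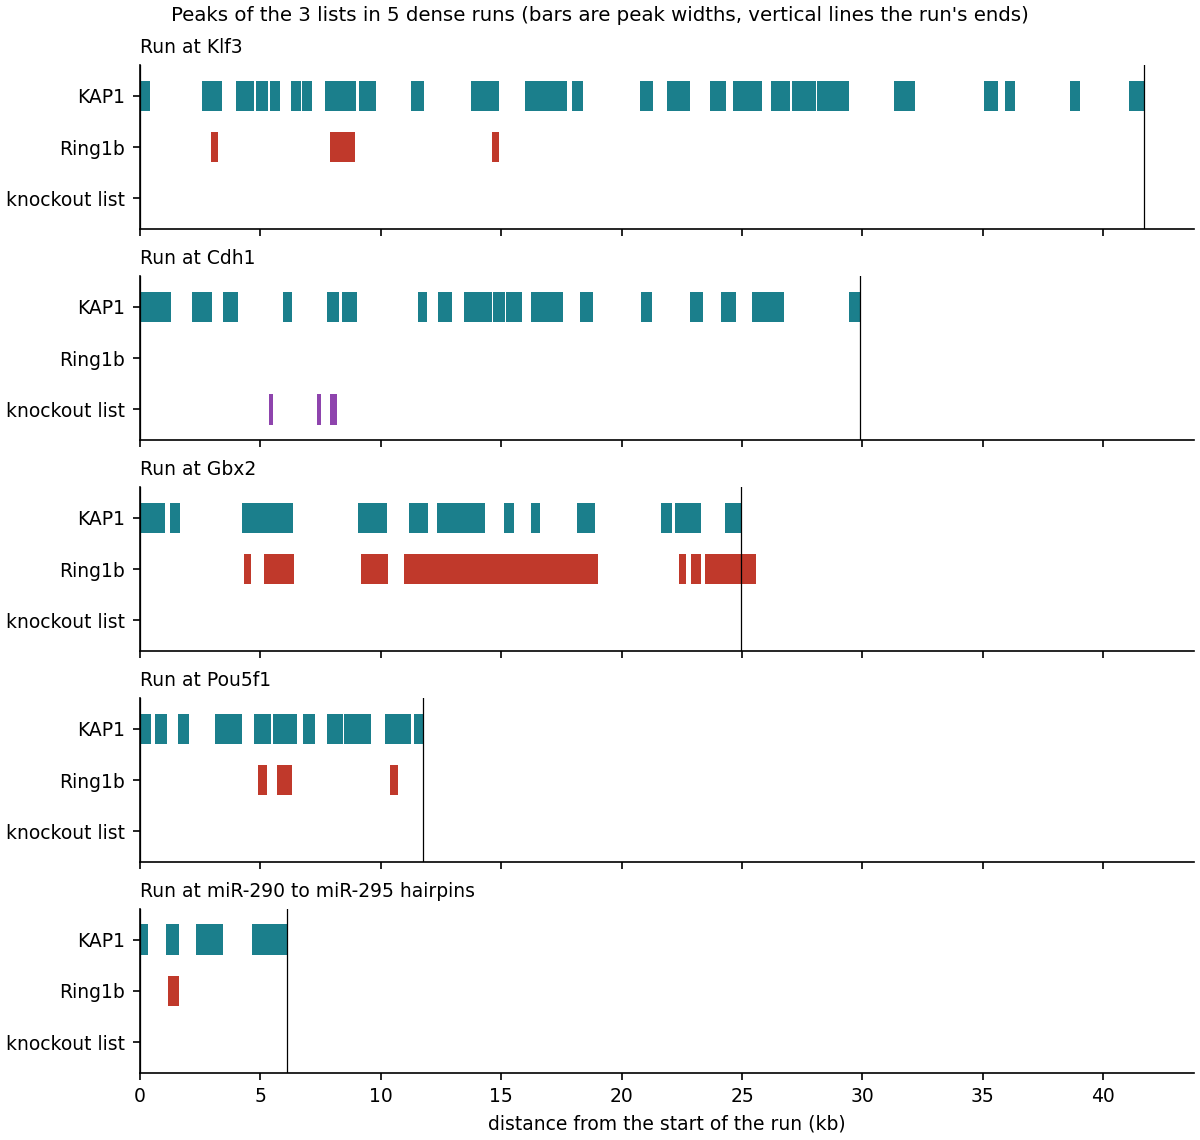
Peaks of the KAP1, Ring1b and knockout lists in 5 runs, drawn to scale from the start of each run (x axis, kb; bars are peak widths and vertical lines the ends of the run). Klf3 has 25 KAP1 peaks and 3 Ring1b peaks, Cdh1 has 19 KAP1 peaks and no Ring1b peak, and at Gbx2 8 Ring1b peaks cover much of the run.

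Some genes carried several runs. Of 20665 protein-coding RefSeq genes on these chromosomes, 2153 (10.4%) overlapped a run, 284 of them overlapped 2 or more and 7 overlapped 5 or more. Zmynd8, which encodes a chromatin reader, had 6 runs with 46 KAP1 peaks that took up 56.0% of its 115 kb. Nmnat2, an NAD-synthesis enzyme gene, had 6 runs with 41 peaks, and Nav1, a neuron navigator gene, had 6 with 37. Of genes of 10 kb or more, several lay wholly inside 1 run: besides Klf3, they included Agtrap and Mettl27 (15 peaks each) and Zbtb7a and Etv4, both transcription factor genes (13 each). Of the runs, 649 (21.4%) lay within 10 kb of another run.

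A Ring1b peak of vehicle cells lay inside 1286 of the 3034 runs (42.4%, 95% exact interval 40.6 to 44.2%), against 17% of all joined groups. With only the upper 50% of Ring1b scores, 17.5% of runs and 9.47% of all groups held one. With all Ring1b peaks the share was 12.1% for single KAP1 peaks and 25.6% for groups of 2 or 3, and within the runs it ranged from 34.4% at 4 peaks to 65.2% at 10 or more. Length went with it, from a median of 478 bp for single peaks to 18123 bp for runs of 10 or more. At like length the shares of runs and of groups of 2 or 3 peaks were close: 34.0% (30.7 to 37.4%) against 32.9% (30.6 to 35.2%) at 4 to 6 kb, and 38.3% (34.9 to 41.8%) against 39.1% (32.9 to 45.5%) at 6 to 8 kb. Only in the shortest band, 2 to 4 kb, did the intervals not overlap, with 37.6% (31.4 to 44.1%) of runs against 24.6% (23.5 to 25.7%). There the median lengths were 3535 and 2899 bp. Intervals cover counting error over regions only, and no test of the difference was made.

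**Figure D3:**
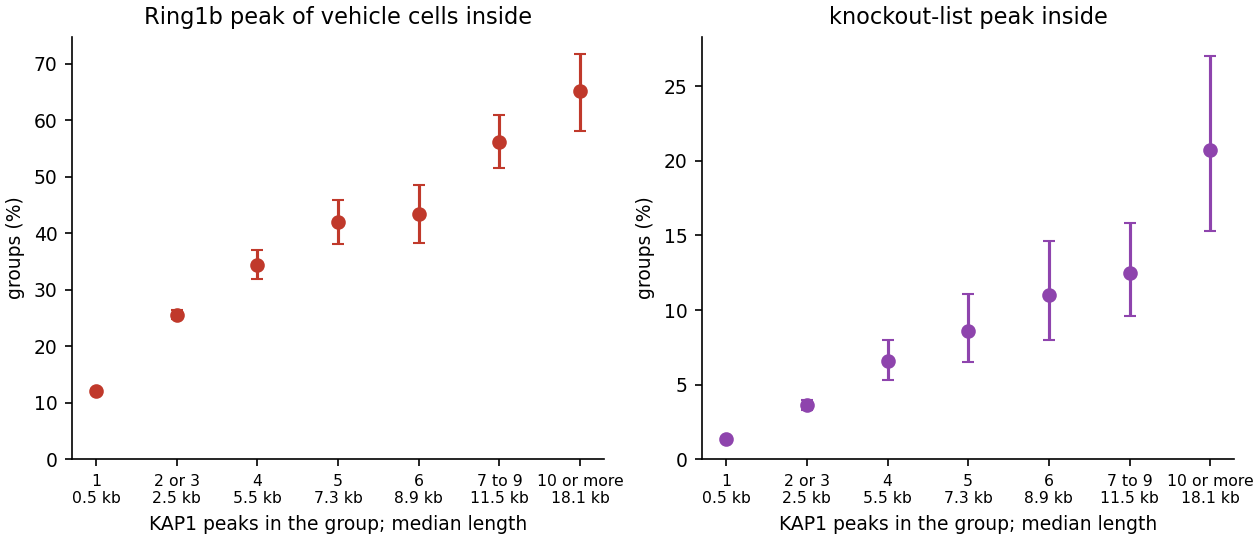
Percent of joined KAP1 groups (y axes) with a Ring1b peak of vehicle cells (left) or a knockout-list peak (right) inside, by the number of KAP1 peaks in the group, with the median length under each (x axes). Points are shares and bars 95% exact intervals; Ring1b goes from 12.1 to 65.2% and the knockout list from 1.395 to 20.7% across the sizes.

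Counted per KAP1 peak, the runs did not stand above the rest. A Ring1b peak overlapped 13.5% of the KAP1 peaks in runs (12.98 to 14.01%), where the share over all KAP1 peaks was 13.8%. Among the widest quartile of KAP1 peaks it was 24.4% in runs (23.2 to 25.6%) and 31.3% for single peaks (30.3 to 32.3%), and among the narrowest quartile 4.55% and 1.75%. Groups of 2 or 3 were at 16.3% over all their peaks, 31.4% in the widest quartile and 4.99% in the narrowest. At deposited promoters, which reach 1 kb to either side of a start, 34.2% of KAP1 peaks in runs met Ring1b (32.4 to 36.1%) against 40.9% of single peaks (39.7 to 42.1%). Away from promoters the order was the other way, with 9.89% in runs (9.40 to 10.4%) and 6.04% of single peaks (5.77 to 6.31%). Groups of 2 or 3 were near the runs there, at 9.64% (9.25 to 10.05%), and at 39.7% at promoters.

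**Figure D4:**
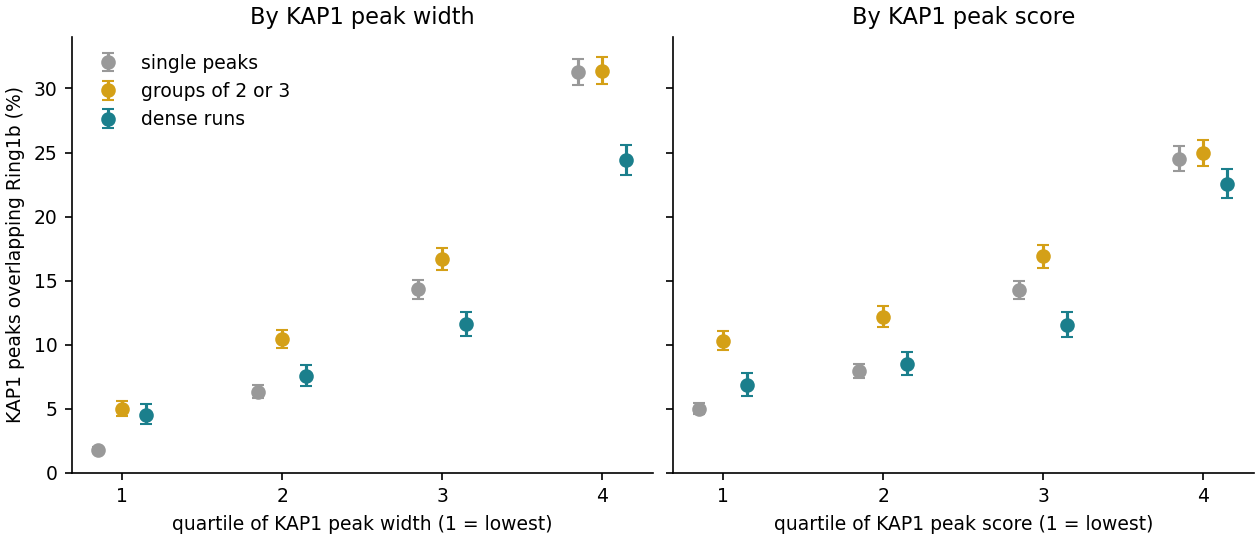
Percent of KAP1 peaks that overlap a Ring1b peak (y axis) by quartile of KAP1 peak width (left) and of KAP1 score (right), for single peaks, groups of 2 or 3 and dense runs; bars are 95% exact intervals. In the widest quartile the runs lie at 24.4%, below single peaks at 31.3%.

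The runs held 2004 of the 13192 Ring1b peaks on these chromosomes (15.2%). Of these, 1933 (96.5%) overlapped a KAP1 peak and 71 lay in the gaps. Gaps made up 54.6% of the length of the runs, which is a share of bases. A Ring1b peak counted as overlapping at 1 bp, and one that crosses a run's end always meets KAP1. The 2 shares are therefore not like measures. Most runs with Ring1b had few peaks of it: 820 had 1, 304 had 2, 97 had 3 and 65 had 4 or more. Ring1b scores had a median of 87.1 in runs and 126 elsewhere, and Ring1b widths had medians of 465.5 and 621 bp. Inside runs that held Ring1b, the highest-scoring KAP1 peak overlapped it in 60.2% of runs (57.5 to 62.9%) and the lowest-scoring one in 16.7% (14.7 to 18.9%), with 29.2% over all peaks of these runs. End peaks (27.8%) and inner peaks (29.8%) met Ring1b about as often. KAP1 score and width were not separated in this count.

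None of the 5 runs with the most Ring1b peaks was among the 10 with the most KAP1 peaks. Gbx2, a homeobox gene of the pluripotency network and of the early nervous system, had 8 Ring1b peaks in a run of 12 KAP1 peaks (chr1:89917509-89942479). The largest of them was 6827 bp wide with a score of 3100, the commonest Ring1b score, which 732 peaks of the list share. Ring1b peaks covered 12930 bp in this run, and 9 of its 12 KAP1 peaks met one. Gas2l1, a cytoskeletal linker gene, had 7 Ring1b peaks, and Nr5a2 (a nuclear receptor of early embryos), Tfap2a (a factor of trophectoderm and neural crest) and Gli2 (a Hedgehog effector) had 6 each. The Tfap2a run held 4 KAP1 peaks, the fewest a run can have, and all 4 met Ring1b. Among runs without Ring1b, those with the most KAP1 peaks lay at Cdh1, near Bcas2, at Etv5 (18 peaks; an ETS-family factor), at Dhx9, an RNA helicase gene, with Npl (17), and at Myo10 (16; an unconventional myosin).

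Runs were spread over all 19 chromosomes, at 0.513 per Mb on chromosome 14 to 2.14 per Mb on chromosome 17. Chromosome 1 stood apart for Ring1b: 209 of its 321 runs (65.1%) held a Ring1b peak, while the other chromosomes ranged from 29.1 to 54.7%. Single peaks met Ring1b in 13.7% of cases on chromosome 1 and 12.01% on the others. For groups of 2 or 3 the shares were 25.3% on the others and 28.8% on chromosome 1. The median KAP1 score was also highest there, at 106 against 90.7 to 98.8 on the other autosomes, and its part in the result was not tested. Without chromosome 1, 39.7% of runs held Ring1b. Run size was not matched between chromosomes.

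The last list, called the knockout list here, gives Ring1b peaks of KAP1 fl/fl cells given 4-hydroxytamoxifen, called against Ring1b fl/fl cells given the drug. Its 2 libraries come from different lines, so line and KAP1 deletion cannot be told apart. A peak of this list lay in 284 runs (9.36%, 8.35 to 10.5%), against 2.37% of all joined groups. The share ran with size from 1.395% of single peaks to 20.7% of runs of 10 or more, and at like length it was near that of groups of 2 or 3: 5.96% and 4.55% at 4 to 6 kb, 7.41% and 9.05% at 6 to 8 kb, with overlapping intervals. Per KAP1 peak, 1.394% in runs and 1.402% outside overlapped a knockout-list peak. Chromosome 8 had the highest share, with 28 of 141 runs (19.9%), and the most peaks of the list (1128), while chromosome 4 had the most such runs (30 of 233, 12.9%). Without chromosome 8 the share was 8.85%.

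The runs held 312 of the 8467 knockout-list peaks on these chromosomes (3.68%), and 237 of the 312 (76.0%) overlapped a KAP1 peak. Outside runs 11.4% of the list's peaks did, where far less of the sequence is under KAP1. Of the 312, 13 (4.17%, 2.24 to 7.02%) overlapped a Ring1b peak of vehicle cells. This share was not computed for the knockout-list peaks outside runs, so it cannot be called particular to runs. Both lists had a peak in 103 runs: 8.01% of runs with Ring1b and 10.4% of runs without it held a knockout-list peak, and 1567 runs held neither. Knockout-list peaks had a median score of 59.7 in runs and 58.9 elsewhere, where the lowest score listed was 50.01. The highest was 184, in a run of 6 KAP1 peaks between genes near Zfp640 (chr13:66705777-66716329) that held 6 knockout-list peaks and no Ring1b peak. Esrrb, an orphan nuclear receptor gene of the pluripotency network, followed with 154. Others were Rbpms (122), an RNA-binding protein gene, and Set (115), which encodes a histone chaperone. Hspg2, Shld2, Dpy30, and runs near E330021D16Rik and Scd1 had scores of 98.6 to 105. Cdh1 had 3 such peaks, all between 52.4 and 53.9 in score.

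Runs lay at genes more often than joined groups as a whole. A run overlapped a gene of the deposited whole-gene tables in 69.1% of cases (67.4 to 70.7%; all groups 56.4%) and a deposited promoter in 41.5% (39.8 to 43.3%; all groups 22.1%). Runs are longer than other groups, and groups of 2 or 3 lay between, at 62.6% and 31.4%. By RefSeq, 974 runs held a protein-coding transcript start, 1132 lay in a gene without a start inside and 928 lay between genes. The KAP1 peaks per run had a median of 5 in each of the 3 positions. Ring1b was inside 58.0% of runs with a start (54.8 to 61.1%), 37.5% of those within genes (34.6 to 40.3%) and 32.0% of those between genes (29.0 to 35.1%). The knockout list did not follow this order, with 9.03%, 9.98% and 8.94%.

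The authors' tables class genes by which protein they found there. Of the 1939 whole-gene entries that overlapped a run, 60.2% were in the class shared by KAP1 and Ring1b, where 47.3% of all entries were, and 39.8% were in the KAP1-only class. None were Ring1b only, which the choice of the runs fixes. The shared class was larger over runs within each band of gene length: 51.5% against 40.2% of KAP1 entries without a run up to 20 kb, 55.7% against 41.8% at 20 to 50 kb, 62.2% against 49.0% at 50 to 100 kb, and 83.7% against 65.4% above 100 kb. An entry with a run has 4 or more KAP1 peaks in or beside it, and the number of KAP1 peaks was not matched in this comparison. At promoters, 42.5% of the 1448 entries in runs were shared (39.9 to 45.1%) and 40.7% of all entries. The latter include Ring1b-only entries, and among entries with KAP1 the order turned, with 42.5% in runs and 43.5% of the others (42.5 to 44.4%). Of the whole-gene entries, 1489 of 13002 carried accessions of more than 1 RefSeq gene, so some names stand for neighbours.

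Gene lists drawn up for this tissue differed widely in how many members lay over a run. Of 35 pluripotency factors on these chromosomes, 26 overlapped a run (74.3%, 56.7 to 87.5%), against 10.4% of protein-coding genes. Of those with an annotated start window, 17 of 22 had a start inside a run, against 6.78% of protein-coding genes, and 28 of the 35 lay within 10 kb of a run, against 14.7%. A gene was counted if any of its annotated starts lay in a run, and neither gene length nor the number of starts was matched. The largest run at each of the 26 factors had a median of 7 peaks, against 5 for all 2153 genes with a run, and 7 of the 26, Nanog among them, had only the minimum of 4. The most peaks were at Klf5 (21), Tfcp2l1 (14), Fgf4, a growth factor gene (14), and Dppa5a (14). LIF and STAT3 signalling genes, which maintain mouse embryonic stem cells, followed with 10 of 18, among them Bcl3 (14 peaks), Pias3 (10), Socs3, a feedback inhibitor (9), and Id2 (6).

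**Figure D5:**
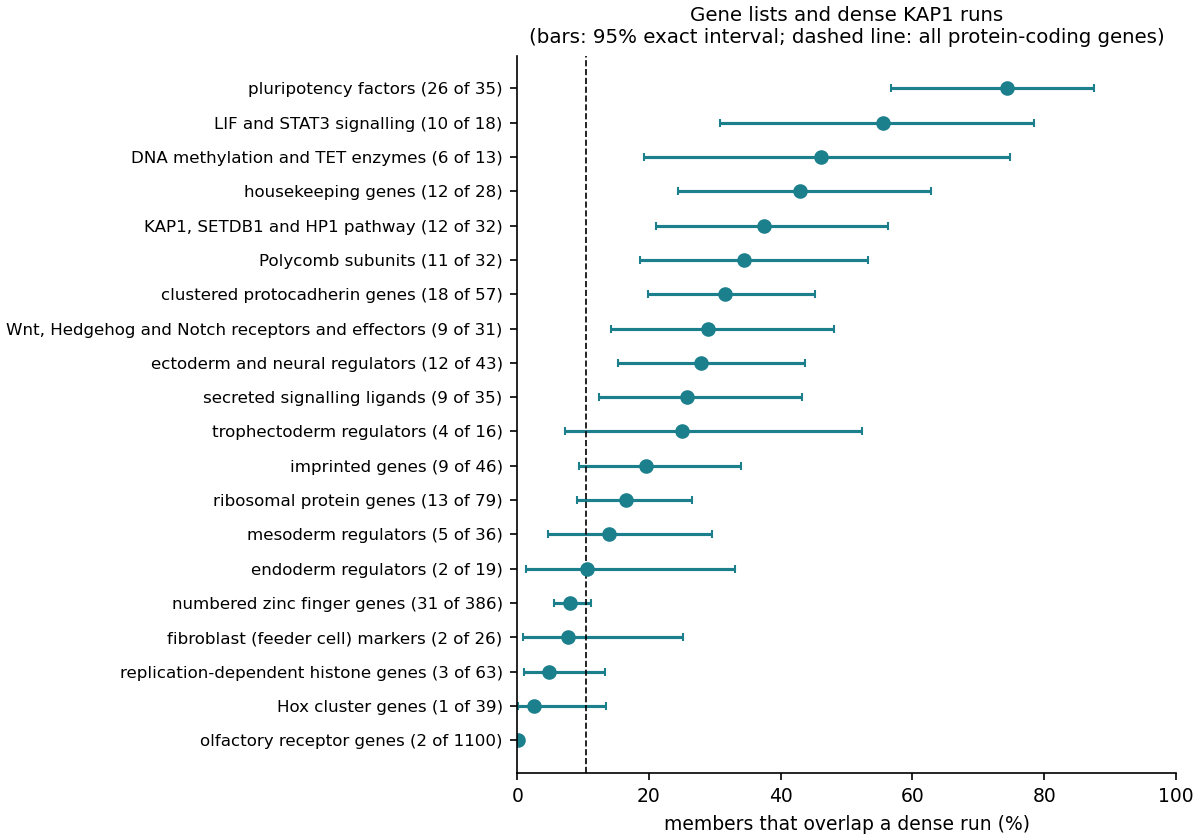
Percent of the members of 20 gene lists that overlap a dense run (x axis; points, with 95% exact intervals as bars), ordered by share, with the counts beside each list's name. The dashed line marks all protein-coding genes at 10.4%; pluripotency factors lie at 74.3% and olfactory receptor genes at 0.182%.

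Among chromatin regulators, DNA methylation and TET enzymes had 6 of 13 members over runs, with Tet2 (9 peaks) and Tet1 (6), which oxidise methylcytosine, and Dnmt3a and its cofactor Dnmt3l (4 each). The KAP1, SETDB1 and HP1 pathway had 12 of 32, with Morc3 (9 peaks), Daxx, a histone H3.3 chaperone gene (7), Zfp809, a KRAB zinc finger that targets a retroviral primer binding site (7), and Smarcad1 (6). Polycomb subunits had 11 of 32, with Phc1 (9), Cbx7 (8), Kdm2b (7), which binds unmethylated CpG, and Auts2 (6). Housekeeping genes had 12 of 28 (24.5 to 62.8%), among them Rplp0 and Rpl13a (10 each), Ppia and Actb (6 each). Ribosomal protein genes had 13 of 79 (9.06 to 26.5%). Of the lists in this paragraph, only the ribosomal one had an interval that included the 10.4% of all protein-coding genes. Members can share a run with genes of another list, as Rpl8 did with Zfp647.

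Beside the 10.4% of all protein-coding genes, several developmental lists had larger shares. Wnt, Hedgehog and Notch receptors and effectors had 9 of 31 (Fzd5 with 10 peaks, Gli2 with 9, Fzd10 and Ptch1 with 7), ectoderm and neural regulators 12 of 43 (Gbx2 with 12, Neurog3 and Nkx6-2 with 7, Olig2 with 6) and secreted signalling ligands 9 of 35 (Bmp7 with 10, Wnt10a, Wnt6 and Nodal with 9). The intervals of the next 4 lists included 10.4%. Trophectoderm regulators had 4 of 16 (Tfap2c with 8), imprinted genes 9 of 46 (Ddc with 8, Zdbf2 and Slc22a18 with 6), mesoderm regulators 5 of 36 (Nkx2-5 and Hand1 with 6) and endoderm regulators 2 of 19 (Prox1 and Sox17 with 4). Clustered protocadherin genes counted 18 of 57 through 1 run that their long shared transcripts span, and none of them had a start window in the table. Numbered zinc finger genes had 31 of 386 (8.03%), with Zfp532 (13 peaks) and Zfp462 (11) first, and their interval of 5.52 to 11.2% includes the share of all genes. So do the intervals of the next 3 lists. Replication-dependent histone genes had 3 of 63, fibroblast markers, which would mark the feeder cells, 2 of 26 (Fn1 with 13 peaks and Snai1 with 4), and Hox cluster genes 1 of 39 (Hoxa3, with 7). Olfactory receptor genes had 2 of 1100 (Olfr543 and Olfr544, in the same run), with an interval of 0.0220 to 0.655%.

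The lists also differed in whether the runs at their genes held Ring1b. Over all 2153 genes with a run, 53.9% met a run with a Ring1b peak and 11.1% met one with a knockout-list peak. All 12 ectoderm and neural regulators with a run met Ring1b there (73.5 to 100%), as did all 9 signalling ligands and all 5 mesoderm regulators. For pluripotency factors it was 22 of 26 (65.1 to 95.6%) and for LIF and STAT3 genes 9 of 10. The KAP1, SETDB1 and HP1 pathway and the housekeeping genes had 2 of 12 each (2.09 to 48.4%), ribosomal protein genes 5 of 13 (13.9 to 68.4%), and numbered zinc finger genes 11 of 31 (19.2 to 54.6%). The intervals of the last 2, and that of the mesoderm regulators (47.8 to 100%), include the 53.9% of all genes with a run. The Ring1b share of runs rose with the number of KAP1 peaks and was higher with a transcript start inside. Neither of these, nor the number of runs per gene, was matched between the lists. For the knockout list the counts were 0 of 12 ectoderm and neural regulators (0 to 26.5%), 3 of 26 pluripotency factors (2.45 to 30.2%), 3 of 10 LIF and STAT3 genes (6.67 to 65.2%) and 6 of 31 numbered zinc finger genes (7.45 to 37.5%). The intervals of these 4 lists include the 11.1% of all genes with a run.

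The 6 fixed genes were looked up whatever their place, the core pluripotency factors and the genes of the proteins mapped. Pou5f1, which encodes the pluripotency factor OCT4, had a run of 11 KAP1 peaks (chr17:35498978-35510750). Their scores from the lower to the higher coordinate were 57.7, 112, 129, 318, 250.6, 377, 93.4, 137, 146, 444 and 68.8. The 3 Ring1b peaks of this run, with scores of 86.1, 81.7 and 88.7, lay at 3 of the 4 highest KAP1 peaks. Sox2, its partner factor, lay in a run of 8 KAP1 peaks with scores of 55.2 to 178 (chr3:34639232-34651400) and 3 Ring1b peaks, of which 1 was 2245 bp wide with a score of 590. Nanog had a run of 4 KAP1 peaks with scores of 298, 60.2, 128 and 54.4 (chr6:122702273-122708753), and its single Ring1b peak of score 57.8 lay on the highest. Trim28, the gene of KAP1 itself, had a compact run of 4 peaks in 2731 bp with scores of 77.0, 199, 161 and 80.1, and 1 Ring1b peak of score 209 on the highest. In all 4 runs a Ring1b peak lay on the KAP1 peak with the top score, as it did in 60.2% of all runs with Ring1b. Klf4, a reprogramming factor gene, and Rnf2, the gene of Ring1b, overlapped no run; the nearest lay 45610 and 42561 bp away, although 2 and 5 KAP1 peaks lay in these genes. Esrrb carried 4 runs, with 9, 6, 4 and 9 KAP1 peaks. The KAP1-deleted cells were the control of the KAP1 list, so a peak at Trim28 does not check the deletion.

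Of 919 annotated microRNA hairpins, 63 (6.86%) were inside 48 runs, near the 6.78% of protein-coding genes with a start in a run. A KAP1 peak covered 35 of the 63 at least in part. The mature sequences below are from 3 of the hairpin clusters in runs, shown because the seed largely sets which transcripts a microRNA binds, and some members of a cluster share it while others differ. They come from RefSeq GRCm38.p6, 5′ to 3′, with the seed (bases 2 to 8) in capitals.
miR-294-3p: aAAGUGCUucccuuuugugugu
miR-295-3p: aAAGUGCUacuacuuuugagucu
miR-290a-3p: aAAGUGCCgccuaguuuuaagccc
miR-291b-3p: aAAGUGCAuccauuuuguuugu
miR-290a-5p: aCUCAAACuaugggggcacuuu
miR-292a-5p: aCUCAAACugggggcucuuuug
miR-293-5p: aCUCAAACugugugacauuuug
miR-182-5p: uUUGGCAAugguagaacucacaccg
miR-96-5p: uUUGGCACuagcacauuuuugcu
miR-183-5p: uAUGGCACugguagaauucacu
miR-132-3p: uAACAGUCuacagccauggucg
miR-212-3p: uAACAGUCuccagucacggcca

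The miR-290 to miR-295 cluster, the most abundant microRNA family of mouse embryonic stem cells and a promoter of rapid cell division, lay in 1 run of 4 KAP1 peaks over 6110 bp (chr7:3216407-3222516). The seed AAGUGCU is shared by miR-294-3p and miR-295-3p, and CUCAAAC by the 5p arms of miR-290a, miR-292a and miR-293. The KAP1 scores in this run were 58.6, 242, 148 and 168, and a Ring1b peak of score 64.9 lay on the highest, upstream of the first hairpin. The hairpins of miR-182, miR-96 and miR-183, a cluster known from sensory organs, lay in a run of 18 KAP1 peaks (chr6:30159353-30184215) with 1 Ring1b peak and 1 knockout-list peak. Of these 3 hairpins, Mir96 was under a KAP1 peak, while Mir183 lay 62 bp and Mir182 339 bp from one. Mir132 and Mir212, which share the seed AACAGUC, lay at the end of a run of 5 peaks that also covers Hic1, and KAP1 peaks reached both hairpins. That run had Ring1b peaks over 8091 bp, with a top score of 3100 (the score that 732 Ring1b peaks share), yet none of them covered the hairpins. Mir142, a microRNA gene of blood cells, lay in a run of 7 KAP1 peaks with no peak of the other lists.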

How the data were processed

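ChIP-seq peaks of 5 mouse embryonic stem cell libraries were used as 3 lists. The submitters' processing notes name mm10 (GRCm38) as the build and list MACS 1.4.2, bedtools 2.16.2, Bowtie2 and CASAVA 1.8.2. Per the file headers, the authors called KAP1 vehicle against KAP1 tamoxifen, Ring1b vehicle against Ring1b tamoxifen, and Ring1b of KAP1 fl/fl tamoxifen cells against Ring1b fl/fl tamoxifen cells. The deposited score is 10 times the −log10 p of that call, and all listed scores were above 50. The sources used here give no read depths.

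Peaks were joined and overlapped (at least 1 bp) with Python 3.11.15, numpy 2.4.6 and pandas 2.3.3, checked on simulated intervals against bedtools. Intervals on shares are exact (Clopper-Pearson, scipy 1.17.1) at 95% and cover counting error only. The 6 deposited gene tables were matched by accession to RefSeq GRCm38.p6, 12881 of 13002 whole-gene entries and 12939 of 13039 promoter entries. No genome sequence was used, so peak sequences are not shown.

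Genes named are the 10 runs with the most peaks, the 5 longest, those with the most Ring1b peaks or with none, up to 10 by knockout-list score, up to 4 members per list by peaks in their run, the runs at the limit of the rule, the genes with the most runs or the largest share in runs, and 6 fixed genes. Some genes that meet this rule are not reported here. The microRNA genes and other members named were chosen after their values were seen. The members and the 20 gene lists were chosen with earlier results of these data known, so list shares are descriptions. Gap, peak number, score and overlap settings were varied, and chromosomes 1 and 8 were left out in turn.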

Additional observations from a re-analysis of the deposited data

Results flagged for a closer look

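The rule covers chromosomes 1 to 19, and the same joining was applied to the peaks outside them. Chromosome X held 3 groups of 4 or more peaks, chromosome Y held 3 and the unplaced contigs held 1, a signal in data that the report does not use. The 3 groups on chromosome Y held 8, 8 and 5 KAP1 peaks, with top scores of 3100, 1097 and 312, and 14, 10 and 7 knockout-list peaks, and no Ring1b peak of vehicle cells. On chromosome X the group with 8 KAP1 peaks held 7 knockout-list peaks, and the other 2 held none. The largest number of knockout-list peaks in a run on chromosomes 1 to 19 was 6. The knockout list compares 2 cell lines, and no cause was tested.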

How the results depend on the processing

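Of 75 recomputed values over 13 settings, 35 stayed within the interval of the reported value (counts within 1.5 times) and 40 moved, and no test was involved. Merging KAP1 peaks that overlap or touch, 1 of the 13 settings, could change nothing because the list holds no such peaks. Its values are all among the 35. No setting reversed the order of runs and all joined groups for the Ring1b, knockout-list, gene and promoter shares of runs. Runs are longer than joined groups as a whole, and the comparison at like length was not repeated under these settings. The kept order is therefore not separated from run length. With gaps up to 1000 bp there were 1045 runs (median 4296 bp), 14.9% of their KAP1 peaks met Ring1b, and 6.32% held a knockout-list peak, 65.3% a gene and 34.5% a promoter, with 65.3% of genes shared and 13 pluripotency factors. With gaps up to 5000 bp the median was 10374.5 bp, and the shares were 44.6% for Ring1b, 11.6% for the knockout list, 73.2% for genes, 48.4% for promoters and 56.3% for the shared class. With 3 or more peaks there were 6177 runs (5053 bp), with 36.3% for Ring1b, 14.3% per KAP1 peak, 6.96% for the knockout list, 66.6% for genes and 37.4% for promoters. With 5 or more there were 1667 (9283 bp), with 49.0%, 11.6% for the knockout list and 43.7% for promoters. With the upper 50% of KAP1 scores there were 848 runs (7659.5 bp), with Ring1b in 53.8%, 17.9% per KAP1 peak, promoters in 44.6%, 67.9% shared and 13 pluripotency factors. A knockout-list peak on a KAP1 peak was in 7.28% of runs. Per KAP1 peak, summits within 500 bp gave 10.3% and an overlap of 50% gave 8.94%. The upper 50% of Ring1b scores gave 17.5% of runs and 6.55% per peak. Without chromosome 1, an alternative chosen after seeing the data like that without chromosome 8 and all those of the pluripotency count, 39.7% of runs and 12.7% of KAP1 peaks met Ring1b. The per-peak share in runs was above that of all KAP1 peaks under the same setting (13.8%) at gaps up to 1000 bp and at 3 or more peaks. Under the other settings it was below its own all-peak share, such as 19.3% with the upper 50% of KAP1 scores. No paired analysis was possible because each group is 1 library and no result comes from a test. Read depth is not known here, so an absent peak does not show absent binding.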
